A study of Homo sapiens with 6 samples.

Results

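The genes described here encode 3 colony-stimulating factors and 3 CC chemokines: CSF1, CSF2, CSF3, CCL2, CCL5 and CCL20. They were chosen by gene symbol, with earlier results of these data known, and make up 6 of the 28675 genes in the count table. RNA was sequenced from MDA-MB-231 cells, an established line from a breast cancer that lacks estrogen receptor, progesterone receptor and HER2 amplification. One group of 3 libraries came from cells carrying a no-load control, and the other group of 3 from cells made to overexpress LARP6, which encodes a La-related protein best known for binding collagen mRNAs. The labels give neither the vector, the promoter, nor the time after its introduction, and do not say whether a clone or a pool of cells was used. Nor do they name separate cultures behind the libraries of a group. The p-values therefore measure only how these libraries vary, and that variation may be technical. The question addressed is whether the level of these secreted signals differed when LARP6 was raised.

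Colony-stimulating factors are secreted proteins named for the blood cell colonies they support. CSF1 (M-CSF) sustains monocytes and macrophages through the receptor kinase CSF1R, CSF2 (GM-CSF) acts on granulocytes and macrophages through CSF2RA and the shared beta chain CSF2RB, and CSF3 (G-CSF) drives neutrophil production through CSF3R. CC chemokines are small proteins that guide leukocytes through G protein-coupled receptors: CCL2 recruits monocytes through CCR2, CCL5 recruits T cells and monocytes through receptors that include CCR1 and CCR3, and CCL20 acts through CCR6 on dendritic cells and lymphocytes. Carcinoma cells can secrete both kinds of signal. Transcription of several of these genes is induced by NF-kB and C/EBP factors, and many cytokine mRNAs carry AUUUA repeats in the 3′ untranslated region that shorten their life.

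In GENCODE v29 (GRCh38), CSF1 (ENSG00000184371.14 in the files) lies at chr1:109910242-109930992 and CSF2 (ENSG00000164400.6) at chr5:132073790-132076170. CSF3 (ENSG00000108342.13) is at chr17:40015361-40017813, CCL2 (ENSG00000108691.9) at chr17:34255218-34257203 and CCL20 (ENSG00000115009.13) at chr2:227805739-227817564, all on the plus strand. CCL5 (ENSG00000271503.6) is at chr17:35871491-35880793 on the minus strand.

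Promoter sequences are shown for those of the 6 genes that had one available, and AU-rich sites for the colony-stimulating factors. The RefSeq promoter table (GRCh38.p14) matched 2 of the 6 genes, CSF2 and CCL20, and not CSF1, CSF3, CCL2 or CCL5. The 250 bases before the gene start are printed on the plus strand, for CSF2 from chr5:132073539-132073788 and for CCL20 from chr2:227813592-227813841. The RefSeq start of CCL20 lies inside the GENCODE span given above, which begins with a transcript that starts farther upstream. Capitals mark matches, on either strand, to a loose kappaB-like pattern (GGG and CC with any 5 bases between them) and to TATAAA.
CSF2: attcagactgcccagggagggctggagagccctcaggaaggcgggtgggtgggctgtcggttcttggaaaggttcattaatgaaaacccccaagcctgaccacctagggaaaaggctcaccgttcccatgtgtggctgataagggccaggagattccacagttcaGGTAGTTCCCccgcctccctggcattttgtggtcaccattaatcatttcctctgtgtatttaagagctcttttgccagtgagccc
CCL20: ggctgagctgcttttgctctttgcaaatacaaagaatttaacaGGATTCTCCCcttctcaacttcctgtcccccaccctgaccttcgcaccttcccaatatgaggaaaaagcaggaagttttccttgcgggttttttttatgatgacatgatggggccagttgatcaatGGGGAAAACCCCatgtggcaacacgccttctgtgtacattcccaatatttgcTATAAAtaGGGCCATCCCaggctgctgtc

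The CSF2 window held 1 kappaB-like match. The CCL20 window held 5, of which 3 overlap in the run of G, A and C before the TATAAA match. The pattern is common, with 54.4% of the 35116 promoters of the same length holding it, and TATAAA, found once in CCL20, was in 10.7%. The AP-1 pattern TGANTCA (6.57% of promoters) and the C/EBP pattern TTNNGNAA (33.2%) had no match in either window. These matches describe letters and not occupied sites.

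The AU-rich sites of the 3 colony-stimulating factor mRNAs differ in density, which is why they are set side by side. Each line gives the 30 bases of the 3′ untranslated region with the most ATTTA pentamers, from the GENCODE v29 principal transcript (GRCh38, plus strand), with the pentamers in capitals. They lie at chr5:132076077-132076106 for CSF2, chr17:40016986-40017015 for CSF3 and chr1:109930918-109930947 for CSF1.
CSF2: aaatATTTATTTATTTATTTATTTAagttc
CSF3: tatctctATTTAatATTTAtgtctATTTAa
CSF1: aaagtcATTTAaatatctATTTAaaagata

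CSF2 had 8 ATTTA pentamers in a 3′ untranslated region of 318 bases, and 0.0769% of 12999 tested protein-coding genes were at least as dense in them. CSF3 had 7 in 854 bases, a density reached by 2.21% of these genes, and CCL20 had 3 in 451 bases, reached by 4.21%. CSF1 with 4 in 2154 bases and CCL2 with 1 in 376 bases were less dense, at a level reached by 45.2% and 31.9% of genes. CCL5 had 0 in 886 bases, as did 31.0% of the tested genes. The stricter nonamer TTATTTATT occurred 3 times in CSF2 and in none of the other 5 mRNAs, against 8.45% of the tested protein-coding genes with at least 1.

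The libraries held 29409101 to 33387050 counts each. LARP6 itself was at 40.7 to 44.2 CPM (counts scaled to library depth, with TMM factors) in the controls and at 1995 to 2198 CPM in the LARP6 libraries, so each library matched its label. The 7 genes that mark mesenchymal-like triple-negative lines were abundant, at a summed 6093 to 6211 CPM in controls and 6333 to 6459 CPM with LARP6. Of them VIM, CAV1 and CAV2 were called higher, each by 0.09 on the log2 scale, and each call was lost in 4 or 5 of the 6 edgeR fits that left out 1 library (adjusted p of up to 0.245); their part in the results was not tested. CD44, of the same list, changed by -0.07 with groups that did not overlap (edgeR adjusted p = 0.0672), and limma-voom called 2 of the 7 higher and 1 lower. For the luminal type, ESR1, the estrogen receptor gene, had 0 counts in each control library and 1 count in 1 LARP6 library. KRT19 (494 CPM in controls), EPCAM (15.3), GATA3 (11.4) and CDH1 (7.92), from the same list of 8, were detected, and 0 of its 5 tested genes were called by edgeR. The 6 of 8 pan-leukocyte and lymphocyte markers with a row in the count table were near 0, with a sum of 0.746 to 0.952 CPM in controls and 0.592 to 1.13 CPM in LARP6 libraries. The fibroblast list summed to 4.45 to 6.20 CPM in controls against 4.52 to 5.45 with LARP6, most of it LUM and PDGFRB, with COL3A1 and FAP near 0. Endothelial markers summed to 8.0 to 10.8 against 8.07 to 9.90 CPM, most of it PECAM1 and KDR, with VWF and TEK near 0. These sums are of the order of the levels of CSF3 and CCL2, and 0 genes of either list were called by edgeR. In bulk RNA, fewer expressing cells and less RNA per cell cannot be told apart.

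All 3 colony-stimulating factor mRNAs fell in the LARP6 libraries, and none of the 3 CC chemokine mRNAs passed the test. CSF3 fell by 46.8%, CSF2 fell by 18.1% and CSF1 fell by 9.20%. A gene passed at a Benjamini-Hochberg adjusted p below 0.05 in edgeR's quasi-likelihood test over 16226 genes. Of these, 6.03% passed in either direction, 3.6% as lower and 2.43% as higher, against 3 of the 6 genes here as lower and 0 as higher (edgeR, with 4 lower and 0 higher at an unadjusted p below 0.05). DESeq2 called 2 as lower, with no adjusted p for CSF3, and 3 without its filter on low counts; limma-voom called 3. With limma on the log2 of the deposited FPKM plus 1 or plus 0.1, 0 were called lower, with 4 lower at an unadjusted p below 0.05. Each of these tools called 0 as higher. The median log2 fold change of the 6 was -0.23, beside 0.00 over all tested genes. The 6 were chosen with earlier results of these data known, so these comparisons with all tested genes are descriptions only.

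**Figure D1:**
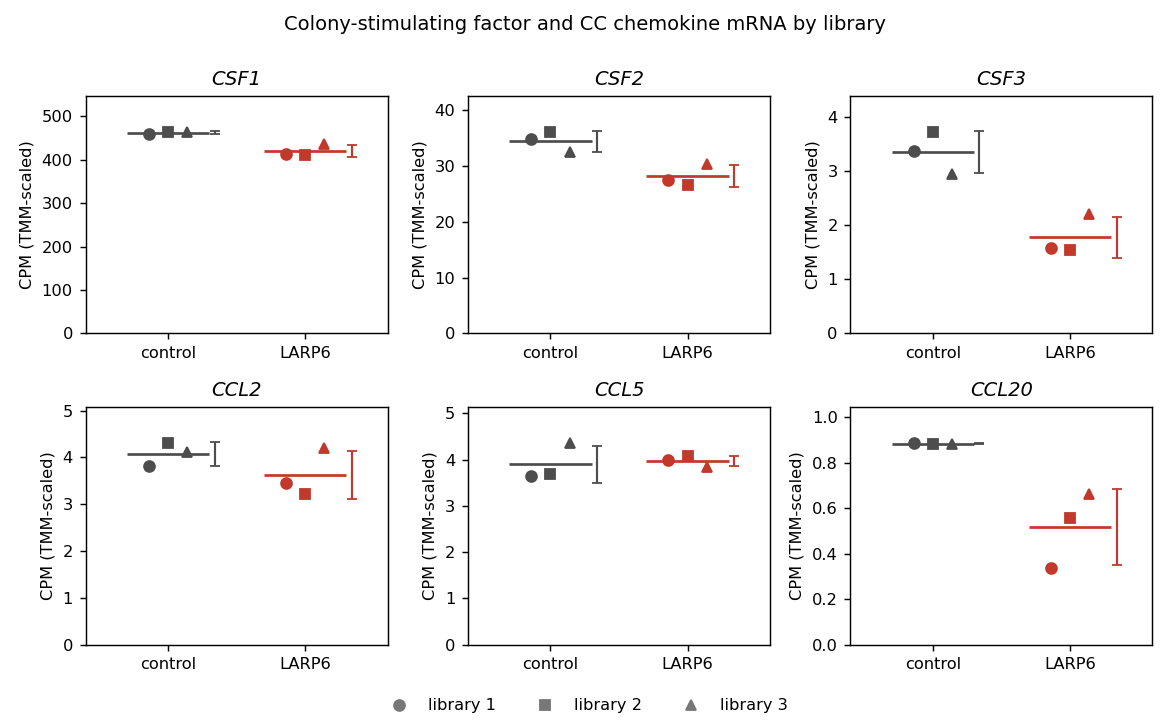
TMM-scaled CPM (y axis, from 0, with a scale for each gene) in the 3 control and 3 LARP6 libraries (x axis). Points are libraries, horizontal lines group means and error bars 1 SD: the groups are apart for CSF1, CSF2, CSF3 and CCL20 and overlap for CCL2 and CCL5.

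CSF1 was the most abundant of the 6 and gave 91.2% of their counts. Its level was 459, 464 and 464 CPM in control libraries 1, 2 and 3, against 414, 410.4 and 435 CPM with LARP6, in the same order. The controls lay within a few CPM of each other, every LARP6 library was below them, and LARP6 library 3 was the closest. The means were 463 ± 2.70 and 420.0 ± 13.4 CPM (SD, n = 3 each), which is -0.14 ± 0.03 on the log2 scale (SE; 95% interval -0.19 to -0.09; edgeR adjusted p = 8.02e-05). Gene-level counts do not separate the secreted and membrane-bound forms of CSF1 that arise by alternative splicing.

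CSF2, the gene with the dense AU-rich site, had 34.8, 36.2 and 32.5 CPM in the controls. Its LARP6 libraries had 27.6, 26.6 and 30.4 CPM. The groups did not overlap, with control library 3 the lowest control and LARP6 library 3 the highest LARP6 library. The means were 34.5 ± 1.87 and 28.2 ± 1.94 CPM (SD, n = 3 each), which is -0.29 ± 0.06 on the log2 scale (SE; 95% interval -0.40 to -0.18; edgeR adjusted p = 0.000162).

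CSF3 was far less abundant, at 3.38, 3.73 and 2.96 CPM in control libraries, against 1.57, 1.54 and 2.21 CPM with LARP6. Every LARP6 library was below every control, and LARP6 libraries 1 and 2 stood lower than library 3. Behind these levels were 310 counts over the controls and 164 over the LARP6 libraries. The log2 fold change was -0.91 ± 0.18 (SE; 95% interval -1.26 to -0.55; edgeR adjusted p = 0.000162), from 3.36 ± 0.387 to 1.78 ± 0.374 CPM (SD, n = 3 each). The interval for CSF3 did not overlap those for CSF2 or CSF1. The difference between the genes' changes was not itself tested.

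CCL20 had the lowest level, with 0.886, 0.881 and 0.884 CPM in control libraries, against 0.335, 0.559 and 0.662 CPM with LARP6. The groups did not overlap, which held with LARP6 lower for 11.7% of all tested genes. These values rest on 82 counts over the controls and 48 over the LARP6 libraries, with 10, 17 and 21 counts in LARP6 libraries 1, 2 and 3. The log2 fold change of -0.76 ± 0.33 (SE; 95% interval -1.41 to -0.11) did not pass the test (edgeR adjusted p = 0.169), although it lay below 0.05 before adjustment. Without LARP6 library 1, the lowest library, the log2 fold change was -0.53.

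CCL2 was at 3.81, 4.30 and 4.11 CPM in control libraries, against 3.45, 3.22 and 4.19 CPM with LARP6. LARP6 library 3 lay among the controls and the other LARP6 libraries below them. The log2 fold change was -0.17 ± 0.15 (SE; 95% interval -0.46 to 0.12; edgeR adjusted p = 0.584), and without LARP6 library 3 it was -0.29 (edgeR adjusted p = 0.339). The interval holds both no change and a fall like that of CSF2, so at this depth neither is told from the other.

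CCL5 was at 3.64, 3.69 and 4.36 CPM in control libraries, against 3.99, 4.08 and 3.85 CPM with LARP6. All 3 LARP6 libraries lay inside the range of the controls. The log2 fold change was 0.02 ± 0.14 (SE; 95% interval -0.26 to 0.31; edgeR adjusted p = 0.958), and its sign turned without control library 1 (-0.02) or control library 2 (-0.01). GENCODE v29 places another gene, AC015849.1, over CCL5 on the opposite strand. It has 0 rows under that symbol in the count table, which was not searched for it by gene identifier. Since no source used here gives the strand setting of the counting, reads from that strand may be included in CCL5.

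**Figure D2:**
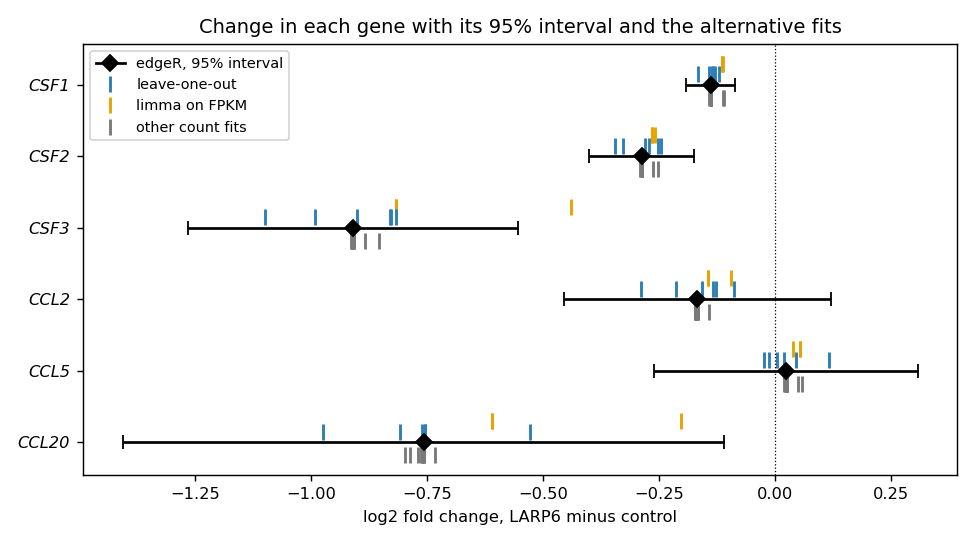
Log2 fold change of LARP6 over control libraries (x axis) for each gene (rows), with black diamonds and bars for the edgeR value and its 95% interval and coloured ticks for the alternative fits. The bars of CSF1, CSF2, CSF3 and CCL20 lie below 0, though CCL20 did not pass after adjustment, and those of CCL2 and CCL5 cross 0.

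LARP6 library 3 was the closest of its group to the controls for several of these genes. It was the highest LARP6 library for 5 of the 6, all but CCL5. The same library was highest for 64.7% of the 584 genes called lower and for 35.5% of all tested genes. LARP6 mRNA was not lowest there, with 1995, 2198 and 2131 CPM in LARP6 libraries 1, 2 and 3. Without LARP6 library 3, the log2 fold changes were -0.17 for CSF1, -0.34 for CSF2 and -1.10 for CSF3. All 3 calls held in each fit that left out 1 library, with edgeR adjusted p at most 0.0115 for CSF1, 0.0117 for CSF2 and 0.00611 for CSF3.

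Compared per length, by the FPKM (fragments scaled to gene length and depth) that the authors deposited, the genes spanned a wide range of levels. CSF1 was at 69.8 to 77.4 FPKM over the 6 libraries, 1.93 to 2.32 times the level of CSF2 in the same library. CSF2 followed at 30.1 to 40.1 FPKM, then CCL5 at 2.14 to 2.53, CCL2 at 1.44 to 1.89, CSF3 at 0.620 to 1.47 and CCL20 at 0.190 to 0.490. The order was the same in all 6 libraries. The ranges of neighbours in this order did not overlap except for CCL2 and CSF3, where the highest CSF3 value, in control library 2, exceeded the lowest CCL2 value, in LARP6 library 2.

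The place of CCL2 in that order depends on the length used. The authors' FPKM followed the total length of all annotated exons: FPKM times that length over CPM lay within 5% of its median for 82.3% of 11187 genes, against 9.01% with the principal transcript. For CCL2 the annotated exons cover 1986 bases, since transcripts that retain introns are included, while the principal transcript has 741. Per kilobase of principal transcript, CCL2 was at 4.35 to 5.81 CPM and CCL5 at 2.67 to 3.19, with CCL2 the higher in all 6 libraries.

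Related ligands and the receptors showed no called change. Of 30 other colony-stimulating and CC chemokine ligands and their close relatives, 17 had a row in the count table, 6 were tested and 0 passed (edgeR, with 0 at an unadjusted p below 0.05, and 0 with DESeq2 and limma-voom). CCL28, a mucosal chemokine, averaged 11.4 ± 0.950 CPM without and 11.5 ± 0.481 CPM with LARP6 overexpression. KITLG, the ligand of the KIT receptor, averaged 7.63 ± 0.330 and 8.31 ± 0.227 CPM (SD, n = 3 each). Their log2 fold changes were 0.01 ± 0.09, whose sign turned without control library 3 or LARP6 library 2, and 0.12 ± 0.10 (SE). IL34, the other ligand of CSF1R, had 3 to 12 counts a library. CCL7, which neighbours CCL2 in the chromosome 17 chemokine cluster, had 1 count in all.

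Among 20 receptor genes, 18 had a row in the count table, 6 were tested and 0 passed (edgeR, with 0 at an unadjusted p below 0.05, and 0 with DESeq2 and limma-voom). CSF1R averaged 2.49 ± 0.0628 CPM without and 2.30 ± 0.146 CPM with LARP6 overexpression (SD, n = 3 each; log2 fold change -0.11 ± 0.18, SE). CSF2RB had 0 to 5 counts a library, CSF3R 0 to 3 and CCR2 0 to 2. CCR3 and CCR1, which bind CCL5, had 44 to 68 and 17 to 27 counts. The most abundant was CCRL2, an atypical receptor that binds chemerin, at 79.3 ± 2.44 and 76.7 ± 1.92 CPM (SD, n = 3 each; log2 fold change -0.05 ± 0.04, SE). CSF2RA, a pseudoautosomal gene, has 2 rows in the count table, for its X and Y copies, and only the X row is described here. How reads were assigned between them is not given in the sources used here, so its level is uncertain.

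**Figure D3:**
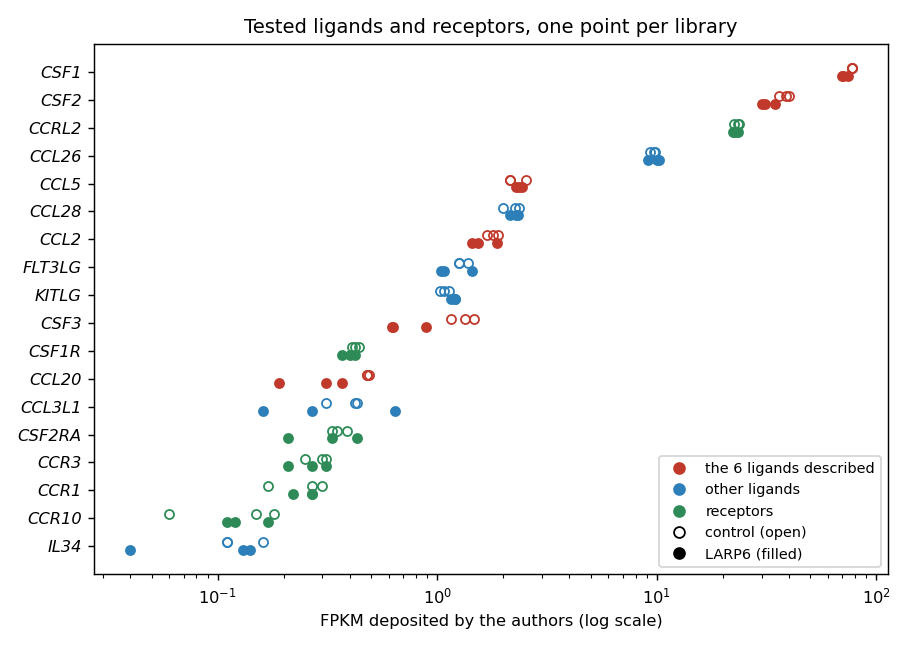
FPKM deposited by the authors (x axis, log scale) for the tested ligands and receptors (rows), with 1 point per library, open for control and filled for LARP6. CSF1 and CSF2 lead at 30.1 to 77.4 FPKM, and every receptor other than CCRL2 lies below CCL2.

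Downstream of these receptors, 19 signalling genes were tested and 0 passed (edgeR, with 3 higher and 4 lower at an unadjusted p below 0.05, and 0 with DESeq2 and limma-voom). The best expressed were GNAI2, a G protein subunit used by chemokine receptors, at a log2 fold change of -0.05 ± 0.03, and the adaptor gene GRB2 at 0.02 ± 0.03 (SE), whose sign turned without control library 1 or LARP6 library 3. The list's median was -0.03, and 1 gene was called lower without control library 1.

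Transcription factors and NF-kB pathway genes, listed as possible inputs to cytokine transcription, went both ways. With edgeR, 5 of 22 were lower, 3 higher and 14 not called (list median 0.01). Over all tested genes, 3.6% were lower and 2.43% higher. DESeq2 called 4 lower and 1 higher, and limma-voom 5 lower and 2 higher. With limma on the log2 of FPKM plus 1 or plus 0.1, 2 were lower and 0 higher. CEBPD and CEBPB, C/EBP factors of the acute inflammatory response, fell from 43.0 ± 1.33 to 32.6 ± 1.76 CPM and from 201 ± 0.404 to 174 ± 4.91 CPM (SD, n = 3 each). Their log2 fold changes were -0.40 ± 0.05 and -0.21 ± 0.03 (SE; edgeR adjusted p = 9.11e-10 and 4.09e-08). NFKBIA, which encodes the inhibitor IkB-alpha and is itself induced by NF-kB, fell by 0.18 on the log2 scale (SE 0.03, edgeR adjusted p = 4.98e-05), from 123, 126 and 119 CPM in the controls to 106, 106 and 112 CPM in the LARP6 libraries.

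The other called genes of the list changed less. The NF-kB subunit gene RELA (-0.10) and the NF-kB cofactor gene BCL3 (-0.14) were lower, and the AP-1 gene FOSL1 (0.10) and the IkB kinase genes CHUK (0.17) and IKBKB (0.17) were higher on the log2 scale. Of the 6 fits that left out 1 library, the call was lost in 5 for RELA (all but control library 3) and in 4 for each of the other 4. For BCL3 these were control libraries 1 and 3 and LARP6 libraries 1 and 2, and for FOSL1 control libraries 2 and 3 and LARP6 libraries 2 and 3. For CHUK they were control libraries 1 and 3 and LARP6 libraries 2 and 3, and for IKBKB control libraries 1 and 2 and LARP6 libraries 1 and 2. The edgeR adjusted p then reached 0.162 for RELA, 0.236 for BCL3, 0.0907 for FOSL1, 0.238 for CHUK and 0.170 for IKBKB. The calls of RELA, BCL3 and CHUK were also lost with GC and length offsets. CEBPD, CEBPB and NFKBIA kept their calls in all 6 fits.

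Of 13 factors that control the decay or stability of cytokine mRNAs, 1 fell, 1 rose and 11 were not called (edgeR, list median 0.03). At an unadjusted p below 0.05 in edgeR, 4 were higher and 3 lower. ZC3H12A, an RNase that cuts stem-loops in inflammatory mRNAs, was at 42.2, 43.2 and 45.0 CPM in control libraries, against 26.3, 26.9 and 27.8 CPM with LARP6. All LARP6 libraries were far below all controls (log2 fold change -0.69 ± 0.05, SE; edgeR adjusted p = 1.63e-22). TIA1, an AU-rich element binding protein, rose by 0.47 ± 0.07 on the log2 scale (SE, edgeR adjusted p = 1.06e-06), from 14.7, 14.6 and 16.0 CPM to 20.4, 23.7 and 18.7 CPM. Without control library 1 or LARP6 library 3, 2 genes of the list were called higher. No call was made for ZFP36, ZFP36L1 or ZFP36L2, the proteins that bind ATTTA repeats and recruit the deadenylation machinery. In that order, the log2 fold changes of the genes were 0.03 ± 0.07, 0.10 ± 0.03 and 0.07 ± 0.04 (SE). ZFP36L1 lay near the threshold (edgeR adjusted p = 0.0524).

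Among 14 tested genes that process these proteins or hold them at the cell surface, 2 fell, 0 rose (edgeR, with 1 higher at an unadjusted p below 0.05, and 0 called higher with DESeq2 and limma-voom) and 12 were not called. DESeq2 called 1 as lower and limma-voom 2. The heparan sulfate proteoglycan gene SDC4 was at 404, 434 and 432 CPM in control libraries, against 358, 354 and 370 CPM with LARP6. It fell by 0.23 on the log2 scale (SE 0.03, edgeR adjusted p = 1.86e-11). Its relative SDC1 changed by -0.12 ± 0.04 (SE, edgeR adjusted p = 0.0335). That call was lost without control library 1, control library 2, LARP6 library 1 or LARP6 library 2, with an adjusted p of up to 0.282, and with library size only (0.130) or DESeq2 (0.103). ADAM17, which sheds membrane-bound CSF1, and QPCTL, which caps the amino terminus of CCL2, were not called.

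**Figure D4:**
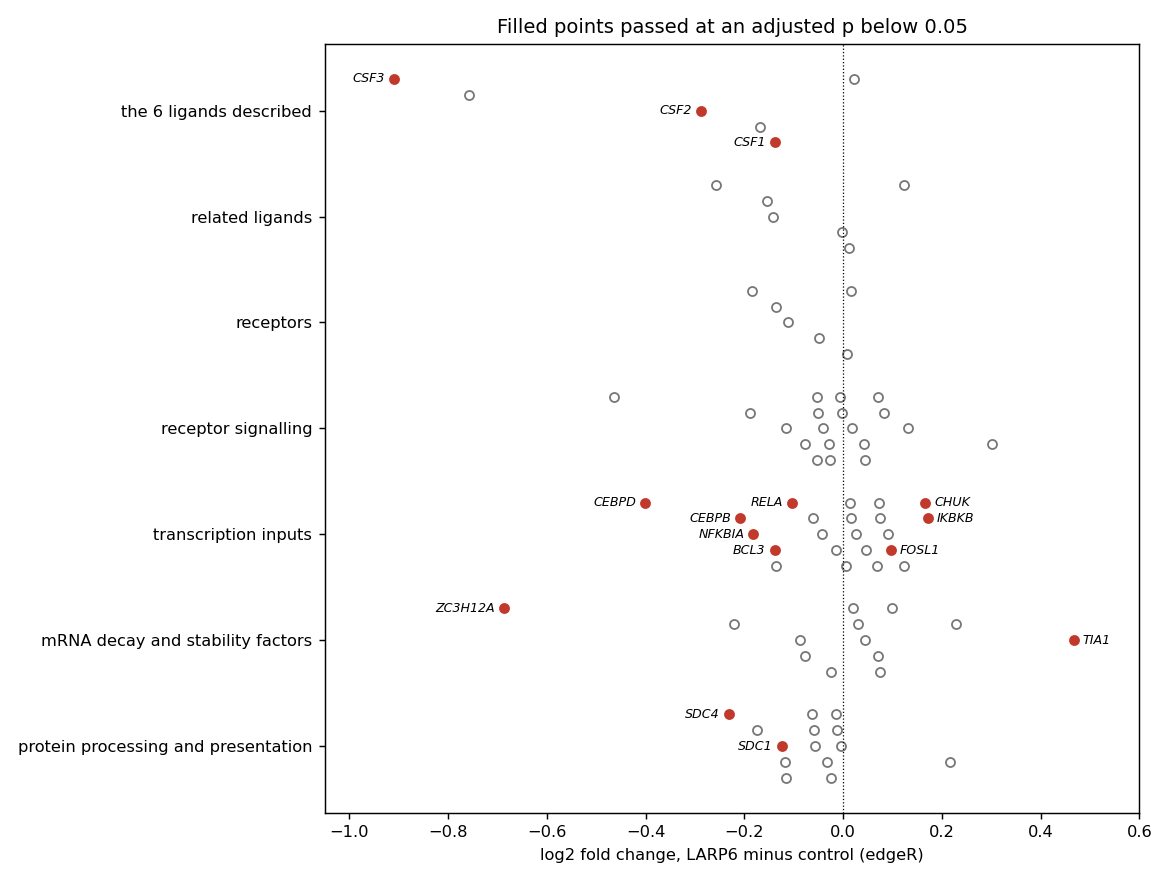
Log2 fold change of LARP6 over control libraries (x axis) for each tested gene of the 6 ligands and 6 related lists (rows), with points spread vertically only for legibility. Filled points passed at an adjusted p below 0.05: among these, CSF3 (-0.91) and ZC3H12A (-0.69) lie farthest to the left and TIA1 (0.47) farthest to the right. CCL20 (-0.76) lies between the first 2 as an open point.

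Across the 6 libraries, the genes whose log2 CPM ran most like that of a member were ranked by Pearson's r among protein-coding genes with at least 5 CPM, as a description. With 10575 or 10576 genes compared over 6 points that share the group difference, the values describe these libraries only. CSF3 ran most like NFKBIA (r = 0.997), CSF2 (0.993) and GPX4 (0.992), and CSF2 most like PLXNB2 (0.990), NFKBIA (0.990) and TOR2A (0.989). CSF1 ran most like DMBT1 (0.997), TMED1 (0.996) and SURF4 (0.994). For CCL20 the leading genes were TALDO1 (0.994), SERF2 (0.992) and MRPL43 (0.991), for CCL2 RILPL2 (0.991), ACOT1 (0.991) and LIG3 (0.989), and for CCL5 MFF (0.978), STEAP1 (0.964) and KIF20A (0.962). Between the 3 colony-stimulating factors r was 0.955 to 0.993, and CCL5 had negative values with each of the other 5, from -0.49 to -0.20.

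Of the monocyte and macrophage markers only CD14 was called, and some of the list went the other way. CD68, tested and not called, averaged 4.13 CPM in controls and 4.35 CPM with LARP6. CSF1R, also not called, averaged 2.49 and 2.30 CPM. LYZ, too low to be tested, had 13 counts over the controls and 30 over the LARP6 libraries. FCER1G, also too low to be tested, went down, with 29 counts over the controls and 12 over the LARP6 libraries. CD14 fell from 12.4 ± 0.118 to 9.71 ± 0.661 CPM (SD, n = 3 each), which is -0.35 ± 0.09 on the log2 scale (SE; edgeR adjusted p = 0.00580), a call lost without LARP6 library 2 (adjusted p = 0.0875). Of the 11 markers of this list, 10 had a row in the count table and 3 were tested, and 7 of the 10 averaged below 0.5 CPM. Their summed level was 19.4 to 19.9 CPM in controls and 16.4 to 17.6 CPM in LARP6 libraries. The defining markers AIF1, MRC1 and CD163 had at most 1 count in any library. The part of such cells in the falls of CSF1, CSF2 and CSF3 was not tested.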

How the data were processed

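Messenger RNA of 3 control and 3 LARP6 libraries was sequenced as paired reads of 150 bases with a strand-keeping kit, per the labels' protocols. Whole-number counts and FPKM, 1 value for each gene and library, were deposited by the authors in separate files. Per the submitters' processing notes, HISAT2, DESeq2 and GRCh38 were used; tool versions, counting program, strand handling and gene annotation were not given in the sources used here. Groups and replicate numbers come from sample titles.

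Counts were fitted as deposited with edgeR 4.0.16 (R 4.3.3): expression filter, TMM scaling, robust quasi-likelihood test, no covariate, Benjamini-Hochberg adjustment over all 16226 tested genes. CPM are TMM-scaled. SE is the log2 fold change over the root of F. The fit was also run on counts simulated from its own means and dispersions, which cannot show how well it describes these data. Transcript, exon and AU-rich features come from GENCODE v29 (GRCh38), matched by gene identifier, and promoters from RefSeq.

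The 6 genes, the related lists and the motifs were chosen with earlier results of these data known. Named beside the 6 were, from each list, up to 4 called genes with the smallest p, or the 2 best expressed where none was called, and the 3 genes most like each member. RELA, BCL3, CHUK, IKBKB and the other genes named beyond that rule were picked after their values were seen. Alternatives were other scalings and filters, DESeq2 1.42.0, limma 3.58.1 (voom, and FPKM on a log2 scale with a pseudocount of 1 or 0.1), blocking on replicate number, a threshold of 0.01 and leaving out each library. GC and length offsets and DESeq2 without independent filtering were added after seeing the data.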

Additional observations from a re-analysis of the deposited data

How the results depend on the processing

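The falls of CSF1, CSF2 and CSF3 kept their direction in every fit run, and their calls in every count-based fit that gave an adjusted p. With limma on the deposited FPKM, 0 of the 3 were called (4 of the 6 genes were lower at an unadjusted p below 0.05), and few genes of any kind were: 90 with a pseudocount of 1, 92 with 0.1 and 23 with 0.1 and no filter. There the log2 changes were -0.11, -0.11 and -0.11 for CSF1, -0.26, -0.27 and -0.27 for CSF2, and -0.44, -0.82 and -0.82 for CSF3; the larger pseudocount shrinks low genes, and the cause of the lost calls was not tested. DESeq2 gave no adjusted p for CSF3, CCL2, CCL5 or CCL20, and 0.00307 for CSF3 without independent filtering. With 1 library left out, the log2 change ran from -0.17 to -0.12 for CSF1, -0.34 to -0.25 for CSF2, -1.10 to -0.82 for CSF3, -0.29 to -0.09 for CCL2, -0.024 to 0.12 for CCL5 and -0.97 to -0.53 for CCL20. CCL28 turned with GC and length offsets (-0.038). It ran from -0.055 to 0.060 with 1 library left out, and GRB2 from -0.013 to 0.057.

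Genes past the threshold, 979 in the edgeR fit, numbered 611 with DESeq2, 510 without its independent filtering, 443 at 0.01, 502 with GC and length offsets, and 456 (without LARP6 library 2) to 1040 (without LARP6 library 3) with 1 library left out. They were 459 without LARP6 library 1 and 650 without control library 2. With library size only they were 687 higher and 303 lower, against 395 and 584. In the 6 related lists, 4 higher and 8 lower became 8 and 5 with library size only and 1 and 5 at 0.01. With FPKM they were 0 and 4 at either pseudocount and 0 and 1 without a filter. DESeq2 without independent filtering gave 2 and 5. The higher genes were 2 with DESeq2, 2 without a low-count filter and 7 with the replicate block. With 1 library left out they were 1 to 4 higher and 5 to 8 lower. Same-numbered libraries deviated together only weakly (r = 0.03, 0.01 and 0.05), and not every library ran most like its own number. With 3 libraries a group and no word in the labels, these values cannot decide whether the number is a pairing. The replicate block gave 1345 genes and the same 3 calls among the 6. CCL20 rests on 10 to 29 counts a library, and what could be called at that depth was not tested.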

Other observations

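The 3′ untranslated region nonamer TTATTTATT occurs 3 times in CSF2, and all its tested carriers, CSF2 included, were counted by call. Of the 1099 tested protein-coding genes with at least 1 nonamer, 2.27% were called lower and 4.46% higher (edgeR), with a median log2 fold change of 0.04. Of the 11900 without one, 4.36% were called lower and 2.5% higher, with a median of 0.00. Of the 85 genes with 3 or more, 5 were lower, CSF2 among them, and 4 higher. These classes were drawn after the values were seen and are given as counts, with no test.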
